A study of Mus musculus with 3 samples.

Results

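The regions described here lay around the starts of 5 genes of the Nodal signalling pathway, in a list of places occupied by Brachyury in mouse mesoendoderm cells. A region was a member when its midpoint lay within 100 kb of the start of Nodal, Tdgf1, Lefty1, Lefty2 or Smad7 on genome build mm9. This rule gave 6 of the 3160 regions of the list, or 0.19%. The share describes the whole list and the genes were selected on it, so no interval is given. The 6 regions lay at 3 of the 5 genes, Lefty1, Lefty2 and Smad7, which are the only inhibitors among the 5. The genes were selected on this same list and the Lefty genes share a stretch, so this is no result about inhibitors in general. Of the 6 regions, 4 lay around Lefty1 and Lefty2, which lie close together on chromosome 1 and shared 3 of them. The other 2 lay close to the start of Smad7 on chromosome 18. The starts of the ligand gene Nodal and of the co-receptor gene Tdgf1 had 0 regions within 100 kb. For comparison, 16.1% to 23.6% of 200 kb windows shifted along the chromosomes of these genes held 1 region or more. An empty window, like those of Nodal and Tdgf1, was therefore the usual state.

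Chromatin came from cells of D3, an established mouse embryonic stem cell line whose strain of origin the labels give as (C3H/HeH x 101/H)F1. The cells had been turned into mesoendoderm in vitro, in serum-free culture that depended on Activin A. There were 3 libraries from chromatin immunoprecipitation with sequencing: 1 with each of 2 custom rabbit antibodies raised against residues 249 to 436 of Brachyury fused to GST, and 1 mock library with pre-immune IgG. All libraries shared the Activin A treatment, so there is no group without it, and the list has no marker genes by which the labelled cell type could be checked. The list gives positions only, with no height, score or value per library, so the depth behind a region is unknown, neither antibody could be set against the mock, and no replicate error exists.

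Nodal is a secreted ligand of the TGF-beta family that drives the formation of mesoderm and endoderm in the early embryo. It signals through activin receptors together with a co-receptor, Cripto, the product of Tdgf1, and the receptors pass the signal on through Smad proteins that enter the nucleus. Activin A uses the same type of receptor without Cripto. Lefty1 and Lefty2 are secreted proteins that hold Nodal back outside the cell, and Smad7 is an inhibitory Smad that acts on the receptors inside it. Brachyury is a T-box transcription factor of the primitive streak, nascent mesoderm and notochord.

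No mm9 genome was used here, so the sequence under the regions and their place in exons or introns were not analysed. Of the 5 genes, RefSeq's promoter table on build GRCm38.p6 matched Nodal and Tdgf1. Their 250 bases before the start are shown, and the capitals mark a core of the T-box recognition sequence. Lefty1, Lefty2 and Smad7 had no match, so no promoter of a gene with regions could be shown. For Nodal the window is chr10:61417722-61417971 on the plus strand, and for Tdgf1 it is chr9:110946159-110946408 on the minus strand.
Nodal: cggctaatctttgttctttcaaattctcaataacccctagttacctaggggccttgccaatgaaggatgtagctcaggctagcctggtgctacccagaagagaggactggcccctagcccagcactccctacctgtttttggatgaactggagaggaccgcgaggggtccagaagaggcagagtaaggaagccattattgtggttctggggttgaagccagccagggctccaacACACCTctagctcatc
Tdgf1: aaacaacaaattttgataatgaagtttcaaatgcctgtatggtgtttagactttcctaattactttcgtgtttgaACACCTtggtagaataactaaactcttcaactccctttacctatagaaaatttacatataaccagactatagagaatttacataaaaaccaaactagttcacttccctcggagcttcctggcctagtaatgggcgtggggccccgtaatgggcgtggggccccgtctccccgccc

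The T-box core searched was AGGTGT, which reads ACACCT on the other strand. Nodal had 1 match, from 16 to 11 bases before the start, and Tdgf1 had 1, from 175 to 170 bases before it, both with AGGTGT on the strand opposite to the gene. The longer T-box half-site GGTGTGA, or TCACACC on the other strand, had 0 matches in either window. Both motifs share the letters GGTGT, so 1 place can count under both. Of 32851 promoter windows of the same length in the table, 11.8% held the core and 3.33% held the half-site. The motifs were chosen after both sequences had been seen, so the matches at Nodal and Tdgf1 cannot be tested against these shares. The core matches are letters in a window and do not show binding. The list has no region at either gene, and whether Brachyury binds there was not tested.

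The gene starts were available on mm9 only to 0.01 Mb: chromosome 10 at 60.88 Mb for Nodal, chromosome 9 at 110.85 Mb for Tdgf1, chromosome 1 at 182.87 Mb for Lefty1 and 182.82 Mb for Lefty2, and chromosome 18 at 75.53 Mb for Smad7. Each distance to a start is therefore uncertain by up to 5 kb.

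The genes were selected on the positions of the regions in this same list, with the long empty stretch around Nodal already known, so the counts and distances that follow are a description and carry no test. Each gene's window of 200 kb was set beside windows of the same length shifted in steps of 50 kb along its own chromosome, between the outermost regions. Such windows overlap, include the gene's own place and share regions, so their shares give the background and no p-value. Over all autosomes, 20.0% of the shifted windows held 1 region or more, 4.79% held 2 or more and 1.11% held 3 or more.

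**Figure D1:**
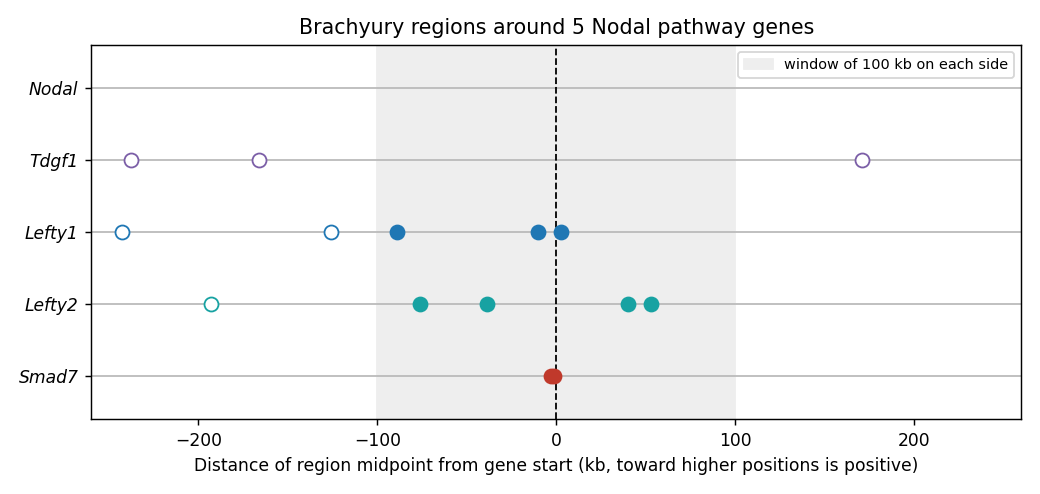
Distance of region midpoints from each gene start, in kb, for the 5 genes, within 250 kb. Each circle is 1 region, filled inside the grey window of 100 kb on each side and open outside it; the 2 regions of Smad7 overlap in the drawing, the Lefty1 and Lefty2 rows show the same regions from 2 starts, and Nodal has none.

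The start of Nodal (gene ID 18119) stood far from any region. The nearest on the side of lower positions, a region of 713 bp at 51536392 to 51537104, lay 9.34 Mb away. The nearest on the other side, a region of 972 bp at 70681977 to 70682948, lay 9.80 Mb away. Nodal thus sat close to the middle of an empty stretch of 19.1 Mb. Of positions spaced by 1 kb along chromosome 10, 0.368% were as far from a region as Nodal or farther, and the median position lay 483 kb from one. All positions that far away lay in this same empty stretch, so the share restates its length and is no separate support. Chromosome 10 had 125 regions, 1.00 per Mb between its outermost ones. An empty window was the usual state there: 16.1% of its shifted 200 kb windows held a region, so the count of 0 at Nodal within 100 kb was shared by 83.9% of windows. What set Nodal apart was the length of the empty stretch, which was already known when the gene was chosen. Within 1000 kb of Nodal there were still 0 regions, as in 30.2% of shifted windows of that size. The coverage of this stretch by mapped reads was not available, so a lack of binding and a lack of readable signal cannot be told apart here. Whether the list as used here is complete over this stretch is not known either, and the distances at Nodal hold for the list as it stands. In the gene table, the protein-coding neighbours of Nodal were Pald1 and Prf1 on the side of lower positions and Eif4ebp2 and Lrrc20 on the other; their own starts were not placed on mm9.

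Tdgf1 (gene ID 21667) also had 0 regions within 100 kb, but its surroundings were not empty. Just outside the window lay a region of 551 bp at 110683784 to 110684334, 166 kb from the start on the side of lower positions, and a region of 507 bp at 111020368 to 111020874, 171 kb away on the other side. These are the regions that a window of 200 kb on each side takes in. Another, of 462 bp at 110612257 to 110612718, lay 238 kb away. All 3 were narrow for the list, where 8.61%, 5.63% and 3.8% of regions were narrower than the regions of 551, 507 and 462 bp. Of the shifted 200 kb windows on chromosome 9, 23.6% held a region, and 76.4% were empty like that of Tdgf1. Chromosome 9 carried 1.55 regions per Mb, and 34.6% of its positions were as near to a region as the start of Tdgf1 or nearer, so the distance of Tdgf1 was unremarkable for its chromosome. The distances of 166 and 171 kb differ by about the rounding error of the start, so which side is nearer cannot be read from them. The protein-coding genes next to Tdgf1 in the gene table were Fam240a and Lrrc2.

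The Lefty genes shared a stretch of chromosome 1 with 4 regions. From lower to higher positions they were a region of 969 bp at 182743524 to 182744492, a region of 842 bp at 182780695 to 182781536, a region of 747 bp at 182859599 to 182860345 and a region of 711 bp at 182872410 to 182873120. Midpoints of successive regions were 37.1, 78.9 and 12.8 kb apart, against a median of 306 kb between neighbours over the whole list. The last of these spacings was among the short ones of the list, of which 6.11% were shorter. On the outer sides the stretch was less crowded: the next region below lay 117 kb from the first member, and the next above lay 1.57 Mb from the last.

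For Lefty1 (gene ID 13590), 3 regions counted. The region of 711 bp lay 2.77 kb from the start toward higher positions, the region of 747 bp lay 10028 bp away toward lower positions, and the region of 842 bp lay 88.9 kb away on that same side. The region of 842 bp was thus just inside the limit of 100 kb, and the region of 969 bp, 126 kb away, was just outside it. With the start uncertain by 5 kb, the nearest midpoint was at most 6.4 kb from the start and could lie on either side of it. Of the positions on chromosome 1, 1.37% were that near to a region. On this chromosome 17.4% of the shifted 200 kb windows held a region, and 0.633% held 3 or more. The 24 windows with 3 or more came from 9 separate places, 1 of which was the Lefty stretch itself.

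For Lefty2 (gene ID 320202), all 4 regions counted, but none lay at the start. The region of 842 bp lay 38.9 kb away toward lower positions and the region of 747 bp lay 40.0 kb away toward higher positions, a difference well inside the rounding error. The region of 711 bp lay 52.8 kb and the region of 969 bp 76.0 kb from the start; the next, of 1057 bp at 182626688 to 182627744, was outside at 193 kb. The rounded start of Lefty2 therefore lay in the widest spacing of the stretch, of 78.9 kb, and that of Lefty1 in the narrowest, of 12.8 kb. For Lefty1 this placement is within the rounding error. Of the positions on chromosome 1, 7.64% were as near to a region as the start of Lefty2 or nearer. Among its shifted windows 0.211% held 4 regions or more, which were 8 windows from 4 separate places, the Lefty stretch among them.

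The counts of Lefty1 and Lefty2 are not independent, since 3 of the 4 regions fell in both windows. Taken as 1 window of 250 kb from 100 kb below Lefty2 to 100 kb above Lefty1, the stretch held 4 regions. Windows of that length held 1 or more in 20.8% of shifts along chromosome 1 and 4 or more in 0.343%. At 50 kb on each side both genes had 2 regions, a count reached by 1.24% of shifted windows of that size; with its start 5 kb higher, Lefty2 would have 3. The rounded starts stand 50 kb apart, while the lower ends of both genes stand 41.9 kb apart on GRCm38.p6, a gap that the rounding of 2 starts can cover. The gene table lists Sde2 and H3f3a below Lefty2, and Tmem63a and Ephx1 above Lefty1. A region counted here lies near a Lefty start and may be as near to the start of another gene, which was not analysed.

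**Figure D2:**
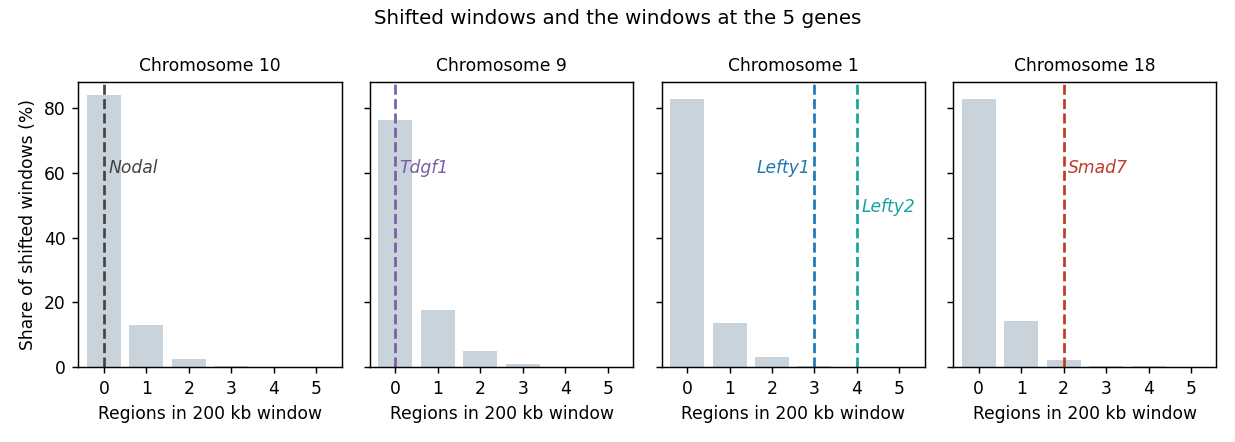
Share of shifted 200 kb windows, in percent, by the number of regions they hold, on the chromosomes of the 5 genes; dashed lines mark each gene's own count. Nodal and Tdgf1 fall on the most frequent class of 0, Smad7 on 2, Lefty1 on 3 and Lefty2 on 4.

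Smad7 (gene ID 17131) had 2 regions, both close to its start. A region of 770 bp at 75526648 to 75527417 lay 2.97 kb from the rounded start and a region of 1046 bp at 75528246 to 75529291 lay 1.23 kb from it, both toward lower positions. With the rounding, the nearest midpoint was at most 6.23 kb from the start, and the side is not settled. Of the positions on chromosome 18, 1.3% were that near to a region. The gap between both regions measured 828 bp. Gaps that short or shorter made up 2.32% of the 3140 gaps between neighbours in the list, and chromosome 18 held 2 of the 80 gaps under 1 kb. Whether a pair so close is a pair of binding places or 1 place listed in pieces was not tested. Joined into 1, they would run from 75526648 to 75529291 and measure 2644 bp, the gap included. That would rank 16 by width among the 3080 regions left when all neighbours under 1 kb apart are joined, whose median was 858 bp.

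Beyond this pair, the surroundings of Smad7 held no further region for a long way. The next region above, of 1538 bp at 76400766 to 76402303, lay 872 kb from the start, and the next below lay 1.17 Mb from the pair. On chromosome 18, 17.3% of shifted 200 kb windows held a region and 3.07% held 2 or more, which were 50 windows from 13 separate places. Within 50 kb of the start Smad7 also had 2 regions, a count reached by 1.1% of shifted windows of that size. At 500 kb on each side the count was still 2, which 28.1% of shifted windows reached. The protein-coding neighbours of Smad7 in the gene table were Dym below and Ctif above. Smad2, which carries the Nodal signal to the nucleus, was listed 3 protein-coding genes above it, and its own start was not placed on mm9. Whether the region of 1538 bp lies near the start of Smad2 or of another gene was therefore not analysed.

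The order of the genes by the nearest region was Smad7 at 1.23 kb, Lefty1 at 2.77 kb, Lefty2 at 38.9 kb, Tdgf1 at 166 kb and Nodal at 9340 kb. Smad7 and Lefty1 cannot be ordered within the rounding of their starts, while the other steps exceed it. Both genes with a region within 10 kb therefore code for inhibitors, 1 acting outside and 1 inside the cell. Since the 5 genes stand for 4 separate places and were selected on this same list, this describes these places and not inhibitors in general.

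**Figure D3:**
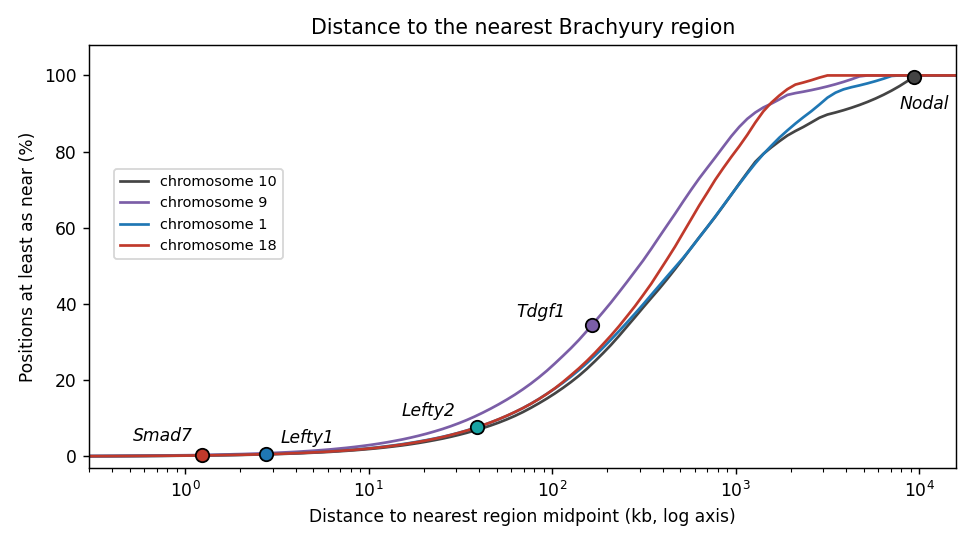
Distance to the nearest region midpoint (kb, log axis) against the share of positions on the chromosome at least as near (percent), with 1 curve per chromosome and 1 point per gene on its own curve. Smad7 and Lefty1 sit at the foot of their curves, Tdgf1 at 34.6% and Nodal at 99.6%.

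In width, which played no part in choosing the members, the 6 regions resembled the list. They measured 711, 747, 770, 842, 969 and 1046 bp, with a median of 806 bp, against a median of 850 bp (quartiles 680 and 1019 bp, SD 299 bp between regions) for all 3160. Of the 6, 5 lay between the quartiles of the list and 1, the region of 1046 bp at Smad7, lay above them. The 3 regions in both Lefty windows, of 711, 747 and 842 bp, were below the list's median. The region nearest to Lefty1 was the narrowest member, with 29.1% of the list narrower, and the region nearest to the rounded start of Smad7 was the widest, with 78.1% narrower. With 6 regions, differences of this size from the list are small beside its spread.

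**Figure D4:**
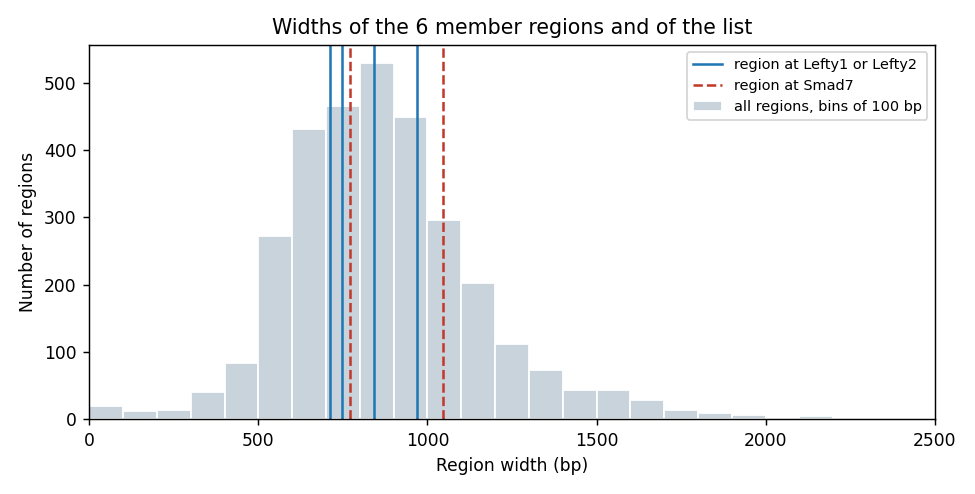
Number of regions by width (bp, bins of 100 bp) for the whole list, with lines at the widths of the 6 members; 3 regions wider than 2500 bp are beyond the axis. All members fall in the body of the distribution, from 711 to 1046 bp.

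Other genes of the pathway, such as the receptors Acvr1b and Acvr2b, the signal carriers Smad2, Smad3 and Smad4, their partner Foxh1 and the inhibitor Cer1, were not placed, because no start on mm9 was at hand for them. The 5 genes therefore do not represent the pathway as a whole.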

How the data were processed

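The deposited list has 3 unnamed columns, for the chromosome and the first and last position of each region. The submitters' processing notes name Bowtie, MACS2 and build mm9 without versions or settings. The thresholds, the role of the mock library and the way the peaks of both antibodies became 1 common list were not given in the sources used here.

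Starts were raised by 1 so that positions count from 1, and a region was placed by its midpoint. Gene starts were those of the member rule, rounded to 0.01 Mb. The named genes are all 5 of the rule. Members and lists were chosen with earlier results of these data known. The gene and promoter tables are RefSeq's on GRCm38.p6 and served for names, gene order and promoter sequence only. The list was taken to be on mm9, the build that the submitters' notes name. On chromosome 7, 8 regions lie beyond the last protein-coding gene of GRCm38.p6, which does not by itself settle the build. All 5 symbols matched in the gene table and 2 in the promoter table. The motifs were chosen after the list and both promoter sequences had been seen.

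Counts, distances and shifted windows were computed with Python 3.11.15, numpy 2.4.6 and pandas 2.3.3, intervals with scipy 1.17.1 and plots with matplotlib 3.10.9. The counting code was tested on simulated lists. Alternatives were other window sizes, starts moved by 5 kb, edges in place of midpoints, merging of neighbours under 1 kb apart, width minimums and other placements of the shifted windows.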

Additional observations from a re-analysis of the deposited data

How the results depend on the processing

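Of 91 recomputed values, 71 stayed within a set limit and 20 moved. The limits were 1.5 times a count, 5 kb of a distance, the spread of widths or the counting interval of a share. Part of the 71 could not have moved. A start moved by 5 kb shifts a nearest distance by 5 kb at most, and taking edges shifts it by less. Counts of 0 cannot rise in a smaller window, after merging or with a width minimum. The 71 is therefore no measure of stability. With only the wider regions, of the median width or more, the count fell to 0 at Lefty1, 1 at Lefty2, 1 at Smad7 and 2 over all genes, and the nearest region lay 126 kb from Lefty1, 76.0 kb from Lefty2, 2350 kb from Tdgf1 and 9800 kb from Nodal; fewer regions enter by construction. Merging neighbours under 1 kb apart left 1 region at Smad7. With 50 kb on each side Lefty2 had 2 regions, and with 200 kb on each side Tdgf1 had 2. Moving the starts by 5 kb, using edges or dropping regions under 300 bp changed no count within 100 kb. In smaller windows, moved after the data had been seen, a start 5 kb higher gave Smad7 0 regions within 5 kb in place of 2, and Lefty2 3 within 50 kb in place of 2.

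The share of shifted windows with a region followed the window size. With 50 kb on each side it was 9.65% on chromosome 1, 13.4% on 9, 8.7% on 10 and 9.52% on 18. With 200 kb on each side it was 29.6%, 39.0%, 28.1% and 30.4%. No paired analysis was possible because no group has more than 1 library and the regions carry no values of single libraries. The list has no score, so a stricter calling threshold was not run, and regions missed for lack of depth could not be judged.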
